A study of Mus musculus with 16 samples.

Results

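The 10 genes described here encode transcription factors and a co-repressor of the somite and its ventral derivative, the sclerotome: *Ripply1*, *Foxc1*, *Foxc2*, *Tcf15*, *Meox1*, *Meox2*, *Uncx*, *Pax1*, *Pax9*, and *Nkx3-2*. They were chosen by name, not by their values, and were found by matching gene symbols to the Ensembl identifiers of the tables. The single-cell table of 29629 genes holds 8 of them, and the bulk table of 47729 genes holds all 10. *Ripply1* and *Nkx3-2* were analysed in the bulk table only.

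Somites are blocks of paraxial mesoderm that bud off in sequence along the axis of the embryo. The ventral part of each loosens into the sclerotome, which forms vertebrae and ribs under Hedgehog signals from the notochord, while the dorsal part forms the dermomyotome, the source of muscle and dermis. Tendon progenitors of the trunk arise in a strip of the sclerotome beside the myotome, whereas those of the limb come from lateral plate mesoderm.

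The single-cell samples came from *ScxGFP* iPSC-20, a single clone of induced pluripotent stem cells made with Sendai virus vectors from embryonic fibroblasts that carry an *Scx*-driven GFP transgene. All 4 culture groups shared a mesodermal induction with CHIR99021, a Wnt agonist, and cyclopamine, a Hedgehog inhibitor. T0 cells were taken before TGF-β2, and T3, T6, and T9 cells after 3, 6, and 9 days with 10 ng/ml recombinant human TGF-β2. Single living cells were sorted into 384-well plates without a gate on GFP and sequenced by CEL-Seq2, a method that counts the 3′ ends of mRNA molecules by unique molecular identifiers (UMIs), so that a level in counts per 1000000 UMIs (CPM) needs no correction for gene length. Each time point had 3 plates, and whether these came from separate cultures is not stated. The bulk samples were Achilles tendons of 2-week-old mice, 2 wild-type (Scx_Wt) and 2 littermates homozygous for an *Scx* knockout, *Scx*-/- (Scx_KO). The part of *Scx* that is deleted is not given in the sources used here.

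Of 4608 wells 4594 had at least 200 detected genes and were kept as cells. The plates held 1921125 to 4657093 UMIs and the bulk samples 11188270 to 12398560 read counts. The median depth of a cell was 10175 UMIs for T0, 5703 for T3, 8794 for T6, and 7900 for T9, and the 384 well barcodes were the same in all 12 plates by design. Plates of a time point were not identical within sampling noise (chi-square per gene, 3.18 to 57.7). T3 replicate 2, T6 replicate 2, and T9 replicate 3 each stood farthest from the other plates of their time point. Each also differed from those plates in its share of reads outside features, high or low, in the authors' mapping summary. All T0 plates had a high share, as had T3 replicate 2 and T9 replicate 3 but not T6 replicate 2. In comparisons with T0, time and this share are therefore partly confounded. The authors left out a principal component in which they saw a batch effect. All 10 tenocyte markers were detected in each bulk sample, as were all 10 striated muscle markers, whose sums are given with the tendon results. *Scx* itself was at 103 and 81.3 CPM in Scx_Wt against 23.1 and 25.1 CPM in Scx_KO, a log2 fold change of -1.88 ± 0.17 (SE; edgeR quasi-likelihood test, Benjamini-Hochberg adjusted p = 0.000429).

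The sequences just before the transcription start are shown for 3 of the genes, *Ripply1* because it differed most in the *Scx* knockout, and *Meox2* and *Foxc1* as a gene that rose and a gene that fell during TGF-β2 treatment. SCX is a basic helix-loop-helix factor, a class that binds E-boxes (CANNTG, which reads the same on both strands), and E-boxes are in capitals. The sequences are from RefSeq on GRCm38.p6, read 5′ to 3′ on the strand of the gene:
*Ripply1*, chrX:139782354-139782603, minus strand: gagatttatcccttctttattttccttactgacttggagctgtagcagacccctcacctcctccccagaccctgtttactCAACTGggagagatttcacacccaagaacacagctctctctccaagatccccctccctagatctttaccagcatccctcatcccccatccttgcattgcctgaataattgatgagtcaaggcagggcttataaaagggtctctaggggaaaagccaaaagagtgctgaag
*Meox2*, chr12:37108290-37108539, plus strand: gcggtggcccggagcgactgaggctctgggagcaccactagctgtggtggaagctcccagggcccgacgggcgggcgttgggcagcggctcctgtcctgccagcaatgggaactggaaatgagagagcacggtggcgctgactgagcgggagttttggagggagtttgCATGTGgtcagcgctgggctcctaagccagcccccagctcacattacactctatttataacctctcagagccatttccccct
*Foxc1*, chr13:31806396-31806632, plus strand: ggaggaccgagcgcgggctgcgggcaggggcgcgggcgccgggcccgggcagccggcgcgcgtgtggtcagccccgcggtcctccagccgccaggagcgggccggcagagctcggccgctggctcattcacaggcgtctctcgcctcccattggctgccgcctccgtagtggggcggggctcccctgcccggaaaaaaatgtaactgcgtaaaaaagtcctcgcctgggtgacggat
The *Ripply1* window held 1 E-box, CAACTG, beginning 170 bases before the start. *Meox2* held 1 as well, CATGTG, at 82 bases, and *Foxc1* held none. RefSeq promoters were matched for 7 of the 10 genes, and 4 of these 7 held the motif within 250 bases. It was in 66.2% of all 32851 promoters in the table, so that its presence does not set these genes apart. Promoters of *Meox1*, *Foxc2*, and *Tcf15* were not analysed here.

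*Foxc1* and *Foxc2* are forkhead genes of the presomitic mesoderm and early somite. *Foxc1* (chromosome 13, 31806633 to 31812476, a gene of a single exon on GRCm38) was at 36.5, 40.8, and 38.5 CPM in the T0 plates, 26, 28.7, and 20.2 CPM at T3, 19.2, 12.4, and 18.6 CPM at T6, and 8.15, 9.63, and 19.9 CPM at T9. Every T0 plate was above every plate with TGF-β2. *Foxc2*, also of a single exon (chromosome 8, 121116171 to 121118895), was at 15, 13, and 10.5 CPM at T0 and 2.60, 3.32, and 2.79 CPM at T3. After that it was between 0 and 1.79 CPM at T6 and between 0.272 and 2.57 CPM at T9. The T0 plates again lay above all others without overlap, and 1 T6 plate had no *Foxc2* UMI, where 3 UMIs would be the limit that a count of 0 allows.

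*Tcf15*, which encodes paraxis, a bHLH factor needed for somites to become epithelial (chromosome 2, 152143561 to 152149097), was at 33.7, 45.4, and 17.2 CPM at T0, 40.6, 42.7, and 41.1 CPM at T3, 22.8, 8.91, and 18.8 CPM at T6, and 9.23, 6.74, and 11.6 CPM at T9. The T0 plates spread widely around the narrow T3 range, and the T9 plates were below all T0 and T3 plates but overlapped with T6.

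*Meox1* and *Meox2* are homeobox genes that act together in patterning of the somite and in formation of the axial skeleton and muscle. *Meox1* (chromosome 11, 101877510 to 101894374) was at 11, 15.5, and 12.6 CPM at T0, 72.4, 114, and 81.9 CPM at T3, 50.2, 55.4, and 53.5 CPM at T6, and 26.1, 24.7, and 32.2 CPM at T9. No 2 time points overlapped, with T3 highest, then T6, T9, and T0. The steps from T3 to T6 and from T6 to T9 did not pass the edgeR test given below. *Meox2* (chromosome 12, 37108540 to 37179534) was lower throughout, at 3.01, 3.01, and 1.35 CPM at T0, 12.5, 11.1, and 8.71 CPM at T3, 7.17, 10.2, and 3.09 CPM at T6, and 2.99, 2.57, and 10.9 CPM at T9. Its T3 plates were above its T0 plates, while T6 and T9 overlapped with T3, and T9 also with T0.

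The other 3 genes of the single-cell table were near the limit of detection. *Pax1* and *Pax9* are paired-box genes that mark the sclerotome. *Pax1* had 9, 11, 13, and 1 UMIs in the 4 groups from T0 to T9, and *Pax9* had 21, 10, 8, and 10. The T0, T3, and T6 plates of *Pax1* overlapped, and the T6 plates of *Pax9*, at 0.476 to 0.955 CPM and at most 3 UMIs each, lay below its T0 and T3 plates. *Uncx*, a homeobox gene of the rear part of each somite, had 7 UMIs in 4 cells at T0 and none at later times. *Pax1* shares 183 exon bases with AI646519 and *Pax9* 189 with Slc25a21, each on the opposite strand, so that single UMIs of either gene are uncertain. These 3 genes did not pass the filter on low counts and were not tested.

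**Figure D1:**
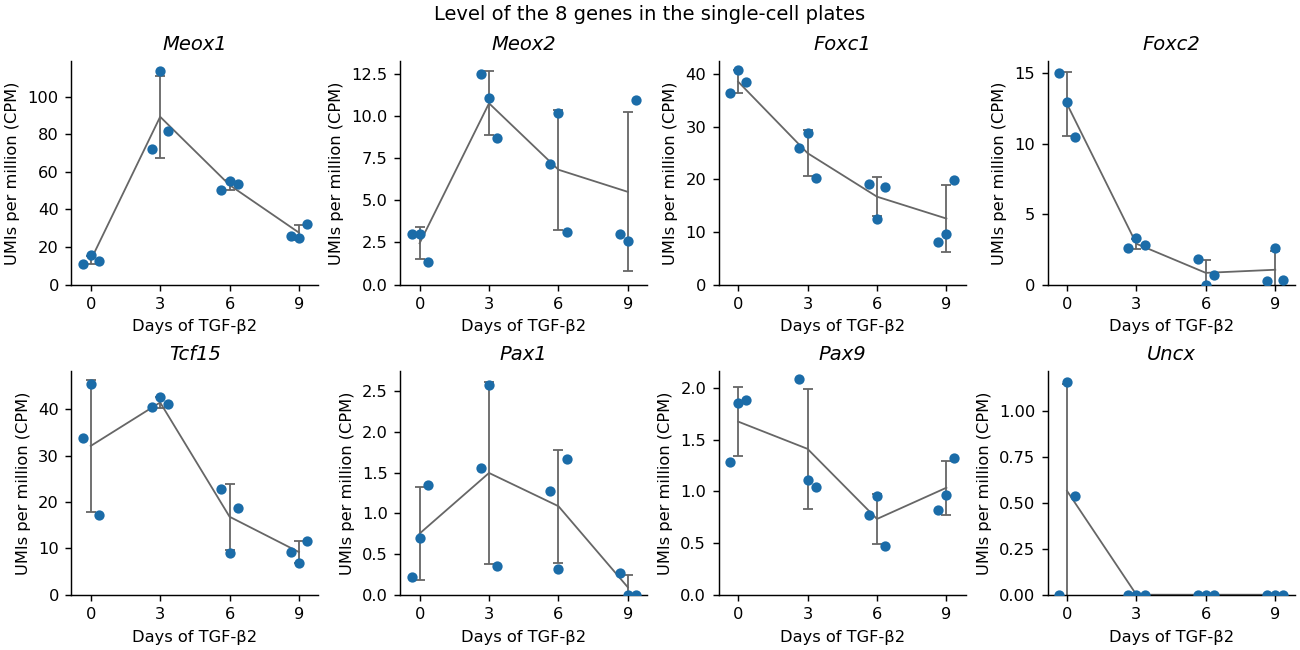
Level of the 8 genes of the single-cell table in CPM against days of TGF-β2. Each point is a plate, and the line and bars give the mean ± SD of 3 plates per time point, with bars cut off at 0. *Meox1* reached 89.4 ± 21.7 CPM at T3 from 13 ± 2.31 CPM at T0, while *Foxc1* and *Foxc2* were highest at T0.

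The comparison of T3 with T0 asks what changed over the first days with TGF-β2. No culture without TGF-β2 was sampled at T3, T6, or T9, so the agent and the days in culture cannot be told apart here or in the later comparisons. Between T3 and T0 *Meox1* rose by a log2 fold change of 2.98 ± 0.21 (SE, 3 plates against 3; edgeR, adjusted p = 1.96e-07) and *Meox2* by 2.33 ± 0.57 (adjusted p = 0.0067). *Foxc2* fell by 1.91 ± 0.64 (adjusted p = 0.0342), while *Foxc1*, at -0.41 ± 0.22, and *Tcf15*, at 0.60 ± 0.30, did not pass the test (adjusted p = 0.17 and 0.144). *Tcf15* was called when T0 replicate 2 was left out (0.96, adjusted p = 0.0447). Thus 3 of the 5 tested members were called, where 33.2% of all 13372 genes tested were, 17.0% as higher and 16.2% as lower. The median of the 5 was 0.60, beside 0.01 for all genes. *Foxc2* passed the filter through its T0 level alone, a choice that favours a difference from T0, so the count and median that include it are a description here and at T9. Its call was lost when any 1 of the T0 or T3 plates was left out (adjusted p = 0.0719 to 0.108).

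After T3 the genes fell or did not pass. Between T6 and T3, *Tcf15* fell by 1.32 ± 0.32 (adjusted p = 0.0302), the only 1 of 5 called, with 4.24% of all genes called. *Meox1* was at -0.70 ± 0.19 (adjusted p = 0.0565), and was called with DESeq2 (adjusted p = 0.0125) and without T6 replicate 2 (adjusted p = 0.0175). It was also called with the share of reads outside features as a covariate, and with cells of at least 1000 genes. The same held with cells thinned to 3000 UMIs and without the cells that held pluripotency genes. In the remaining settings *Meox1* was not called. The *Tcf15* call was lost without T3 replicate 1, T3 replicate 3, T6 replicate 2, or T6 replicate 3 (adjusted p = 0.0559 to 0.103). Between T9 and T6, edgeR called 0 of 5, with 1 at an unadjusted p under 0.05, and 1.62% of all genes. That 1 was *Meox1*, at -0.72 ± 0.20 (adjusted p = 0.0899), which DESeq2 called (adjusted p = 0.0379), as did edgeR with the share of reads outside features as a covariate. The medians of the 5 were -0.70 and -0.22 in these steps, beside 0.03 and -0.01 for all genes.

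Over the whole course, T9 against T0, each of the 5 tested members was called, *Foxc2* among them, which had entered through T0. Of all genes 45.2% were called, 23.6% as higher and 21.6% as lower. The T0 plates are shared with the T3 comparison, so the values are only set side by side. *Meox1* was still higher at T9, by 1.57 ± 0.21 (adjusted p = 4.13e-05), and *Meox2* by 1.52 ± 0.58 (adjusted p = 0.0458). *Foxc1* fell by 1.19 ± 0.23 (adjusted p = 0.000759), *Foxc2* fell by 3.08 ± 0.71 (adjusted p = 0.00293), and *Tcf15* fell by 1.32 ± 0.33 (adjusted p = 0.00514). The median of the 5 was -1.19, beside -0.02 for all genes. The *Meox2* call was lost without T9 replicate 3, the plate at 10.9 CPM (0.81, adjusted p = 0.3), without T0 replicate 1, 2, or 3 (adjusted p = 0.0745 to 0.144), with the plates' share of reads outside features as a covariate in 2 levels (adjusted p = 0.0541), and with cells thinned to 3000 UMIs (adjusted p = 0.0539). The other T9 plates of *Meox2*, at 2.99 and 2.57 CPM, were within the T0 range of 1.35 to 3.01 CPM.

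**Figure D2:**
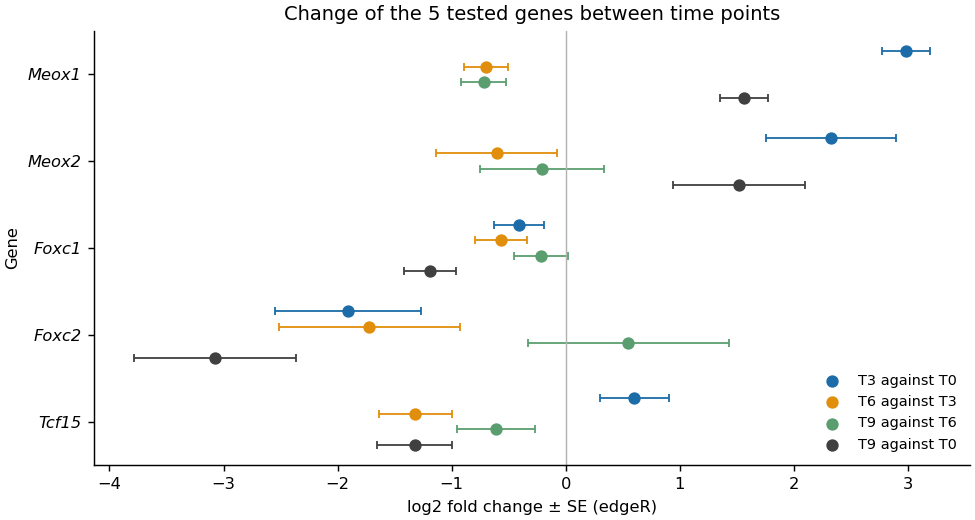
Log2 fold change ± SE (edgeR) of the 5 tested genes in the 4 comparisons of time points. *Meox1* and *Meox2* were to the right of 0 for T3 against T0 and T9 against T0, while *Foxc1*, *Foxc2*, and *Tcf15* were to the left for T9 against T0.

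Other genes of the somite and its neighbours moved as follows. Of 16 presomitic and segmentation genes only 4 passed the filter, and 3 were higher at T3 than at T0 with a median of 1.96 over the 4: *Cyp26a1*, which degrades retinoic acid (2.70), *Rspo3*, a Wnt enhancer (2.08), and *Epha4*, an ephrin receptor of somite boundaries (1.19). Of 14 dermomyotome and myotome genes 8 were tested and 3 rose while 2 fell (median 0.66). *Sim1* was at 17.8 CPM at T3 against 0.435 at T0 and *Mef2c* rose by 1.78, while *Pax3*, the paired-box gene of the dermomyotome, was at 0.362 against 14.0 CPM and *Met* fell by 2.11. The list therefore moved in both directions.

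Of 15 sclerotome and cartilage programme genes 9 were tested, of which 3 rose and 1 fell at T3 (median -0.22). *Runx2*, a regulator of bone formation, rose by 2.24 and *Pdgfra* by 1.05, *Matn4* was at 2.12 against 0.0897 CPM, and *Sox5*, a partner of SOX9 in cartilage, fell by 1.84. *Sox9* was at 121 ± 10.9 CPM against 157 ± 14.8 CPM at T0 and did not pass (log2 fold change -0.14, adjusted p = 0.628). At T9 against T0, 1 rose and 4 fell (median -0.50), among them *Col2a1*, the main cartilage collagen, by 4.07, *Sox5* by 1.61, and *Sox6* by 1.36. *Col2a1* is 1 of 9 chondrocyte markers whose summed level was 19.1 to 21.7 CPM in the T0 plates and 20.9 to 50.1 CPM in the T9 plates. It was thus low at both times, its fall is given as a description, and the sum did not fall with it. In the same comparison 45.2% of all genes were called, 23.6% as higher and 21.6% as lower.

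Hedgehog genes are of interest because *Pax1*, *Pax9*, and *Nkx3-2* are known targets of this signal, and the culture had passed through a Hedgehog inhibitor. Of 14 such genes 8 were tested. At T3, 2 rose, the co-receptors *Gas1* (1.47) and *Boc* (1.31), and 2 fell, *Sufu* (-1.33) and *Gli3* (-1.15), both of which restrain the pathway. *Ptch1*, the receptor that the pathway itself induces, was at -0.07 ± 0.33 (adjusted p = 0.886). The median of the 8 was 0.02.

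For comparison, 12 of 14 tendon genes rose and 2 fell at T3 (median 4.11). Of the 12 tested lateral plate and limb genes 2 rose and 5 fell (median -0.69), and of 4 intermediate mesoderm genes *Emx2* rose (1.29, median of the 4 0.78). Marker lists named for other cell types moved too. All 7 epithelial markers fell at T3. The summed level of 8 pluripotent markers was 371 to 780 CPM in the T0 plates against 105 to 156 CPM at T3, 8.27 to 140 CPM at T6, and 0.332 to 296 CPM at T9. At T9 against T0, 6 of 6 smooth muscle markers (median 2.58), 7 of 8 tested parietal endoderm markers (median 2.50), and 3 of 3 tested endothelial markers (median 3.75) were higher, and 5 of 7 epithelial markers lower (median -2.11). Their summed levels in the T0 and T9 plates were 277 to 598 against 2310 to 3515 CPM for smooth muscle, 907 to 1064 against 5882 to 10858 CPM for parietal endoderm, and 13.7 to 20.6 against 60.3 to 113 CPM for endothelial markers. The smooth muscle list holds *Acta2*, which the authors reported in a cluster that they propose as early tenogenic progenitors. The parietal endoderm list holds *Sparc*, *Col4a1*, and *Col4a2*, and its sum was 28126 and 28129 CPM in the Scx_Wt tendons. Higher sums alone therefore do not show that cells of these types arose. The authors did report a cluster that they took to be endothelial, from *Srgn*, *Tfpi*, and genes of the basement membrane. The parietal endoderm list holds *Srgn* and *Tfpi* too. Whether such cells were present, and their part in the changes of the members, was not tested here. With the cells that held pluripotency genes left out, *Meox1* and *Meox2* were still called between T3 and T0, and the *Meox2* call between T9 and T0 was lost (1.41, adjusted p = 0.0567). *Foxc2* was called between T3 and T0 as well, a description only, since it had passed the filter through its T0 level.

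*Tcf15* at T0 came to a large extent from cells with pluripotency genes. A cell was put in this class when it held UMIs of at least 5 of 8 pluripotent markers, which 63 T0 cells and 28 later cells did. In these cells *Tcf15* was at 138, 227, and 68.3 CPM in the 3 T0 plates, against 17.8, 26.6, and 13.8 CPM in the other T0 cells. The 63 cells, of 1147, held 46.3% of the *Tcf15* UMIs of T0, and 44 of them (69.8%) held at least 1, against 119 of the 1084 others (11%). By plate, 30, 19, and 14 such cells held 54.1, 46.9, and 25% of the *Tcf15* UMIs, so the share was uneven. At T9, 13 such cells held 24.4%. The median depth at T0 was 18192 UMIs in the class and 9940.5 in the others, a difference that levels in CPM take into account and shares of cells do not.

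Among the other cells alone, *Tcf15* was at 19.4 ± 6.54 CPM at T0, 40 ± 3.85 CPM at T3, 16.6 ± 6.84 CPM at T6, and 7.21 ± 3.85 CPM at T9 (mean ± SD, 3 plates). Without the cells with pluripotency genes, a comparison chosen after the values were seen, the T3 level passed the test as higher than at T0, by 1.28 (edgeR, adjusted p = 0.00363), and 33.5% of all genes were then called. *Tcf15* thus had its maximum at T3 in these cells, as *Meox1* had.

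*Meox1* had no UMI in the 63 cells with pluripotency genes at T0, which, counting error only, allows up to 4.76% of cells with a UMI and sets no limit on cells that express the gene, nor in the 28 later ones, although these cells were the deepest. Among the other cells it was found in 84 of 1084 (7.75%) at T0 and in 725 of 3419 (21.2%) later. *Meox1* was hence seen in the other cells and not in the class with pluripotency genes, unlike *Tcf15*. *Meox2* was at 0 of 63, against 27 of 1084 (2.49%), a difference not detectable with 63 cells. *Foxc1* was at 3.55 ± 3.71 CPM in the class and 42.3 ± 1.69 CPM in the other T0 cells, and *Foxc2* at 4.89 ± 4.86 against 13.6 ± 2.33 CPM (mean ± SD, 3 plates). *Foxc1* was thus mostly outside the class, in which 4 of 63 cells held it against 276 of 1084.

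**Figure D3:**
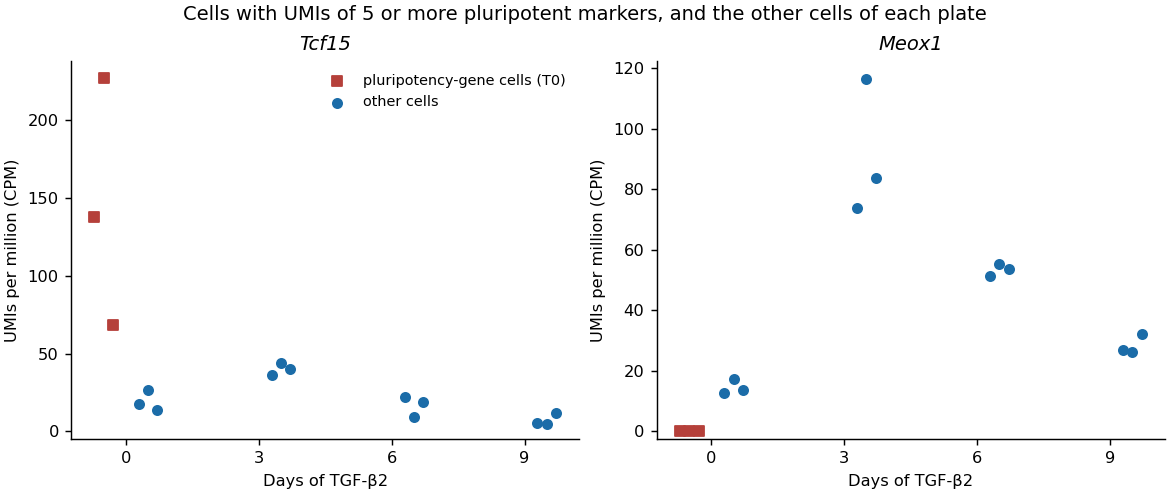
Level of *Tcf15* (left) and *Meox1* (right) in CPM against days of TGF-β2, with 1 point per plate. Squares are T0 cells with UMIs of at least 5 of 8 pluripotent markers (63 cells), and circles are the other cells of each plate. The squares lie at 68.3 to 227 CPM for *Tcf15* and at 0 for *Meox1*.

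Cells that held *Tcf15* at T0 were also compared with the other cells of the same plates. All 8 pluripotent markers were higher in them, and 18.3% of all genes were called, but 0 of the 4 other members tested (edgeR; 2 at an unadjusted p under 0.05, and 0 with DESeq2). After cells with pluripotency genes were left out, 1.36% of genes were called, and *Meox1* was among them. It was at 22.4, 38.6, and 33.3 CPM in cells with *Tcf15* against 11, 12.4, and 11.6 CPM in cells without (log2 fold change 1.41, adjusted p = 0.0137). The groups did not overlap. The cells with *Tcf15* were also deeper, with plate medians of 10711 to 13959 UMIs against 8788 to 10846.5. Before this exclusion *Meox1* was at 20.4 ± 6.50 against 11.3 ± 0.932 CPM (0.83, adjusted p = 0.0735).

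Cells that held *Foxc1* at T0 were compared in the same way, with 1.86% of genes called and 0 of the 3 other members tested (edgeR and DESeq2; 1 at an unadjusted p under 0.05 with either). That 1 was *Tcf15*, at 19.3 ± 11.2 CPM in cells with *Foxc1* against 36.9 ± 16.7 CPM in those without (-0.97, adjusted p = 0.0539). Without the cells with pluripotency genes the difference was -0.17. It was called when T0 replicate 2 was left out (-1.23, adjusted p = 0.0137).

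*Sox9*, the regulator of cartilage that the sclerotome expresses, was in 593 of the T0 cells. Between cells with and without it 0.692% of genes were called and 0 of the 4 members tested (edgeR; 2 at an unadjusted p under 0.05, and 0 with DESeq2). *Meox1* was at 15.8 ± 1.74 against 9.25 ± 3.64 CPM (0.79, adjusted p = 0.406) and *Tcf15* at 28 ± 11.3 against 38.1 ± 19.3 CPM. Neither difference passed the test.

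*Scx*, the bHLH regulator of tendon, was in 933 of 1151 T3 cells, and 218 held none. *Meox1* was at 77.6, 128, and 88.1 CPM in cells with *Scx* against 53.2, 39.9, and 45.5 CPM in cells without. It was higher in all 3 plates (1.06 ± 0.26) but did not pass the test (edgeR, adjusted p = 0.0768). It was called when cells were required to hold 2 UMIs of *Scx* (1.08, adjusted p = 0.0113) and without the filter on low counts. It was not called with cells thinned to 3000 UMIs, without the plate as a covariate, or with any 1 plate left out. Of the 4 members tested 0 were called in edgeR or in DESeq2 (1 at an unadjusted p under 0.05 with either), with 0.443% of all genes called in edgeR. The median depth was 4744 to 7043 UMIs in the plates' cells with *Scx* and 4166 to 7013 in those without. With 2 UMIs of *Scx* required it was 4924 to 7225.5 against 4176 to 5854.5 UMIs. *Tcf15*, at 38.5 ± 8.91 against 52.1 ± 32.4 CPM, and *Foxc1*, at 24.6 ± 4.71 against 28.5 ± 10.5 CPM, overlapped between the classes.

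Seen from the other side, 292 T3 cells held *Meox1*, and *Scx* was at 883, 927, and 1067 CPM in them against 676, 627, and 651 CPM in the cells without (0.56 ± 0.09, edgeR, adjusted p = 0.00161). The classes did not overlap, and *Scx* was among the 0.222% of genes called. The call was lost with cells thinned to 3000 UMIs (0.51, adjusted p = 0.153), when 2 UMIs of *Meox1* were required (adjusted p = 0.0763), and without T3 replicate 2 (adjusted p = 0.563). None of the 3 other members tested was called in edgeR or DESeq2, or had an unadjusted p under 0.05 in either.

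The share of cells with *Meox1* showed the same direction at each later time. At T3 it was 17.6, 37.6, and 29.3% of cells with *Scx*, against 8.51, 14.8, and 14.3% of cells without. At T6 it was 28.2 ± 4.47% against 12.7 ± 2.83%, and at T9 20.4 ± 4.21% against 7.33 ± 1.28% (mean ± SD, 3 plates). The share was higher with *Scx* in 9 of the 9 plates with TGF-β2, and also in 9 of 9 when each cell was thinned to 3000 UMIs, where it was 20.8 ± 7.37% against 11 ± 0.843% at T3, 14.7 ± 2.95% against 8.87 ± 1.04% at T6, and 12.5 ± 0.134% against 5.29 ± 2.06% at T9. At T0 only 56 cells held *Scx*, 8 of them with *Meox1*. The share was 14.2 ± 5.92% with *Scx* against 6.97 ± 1.11% without, higher in 3 of 3 plates, and after thinning, with 5 to 7 cells with *Scx* per plate, it was higher in 1 of 3.

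**Figure D4:**
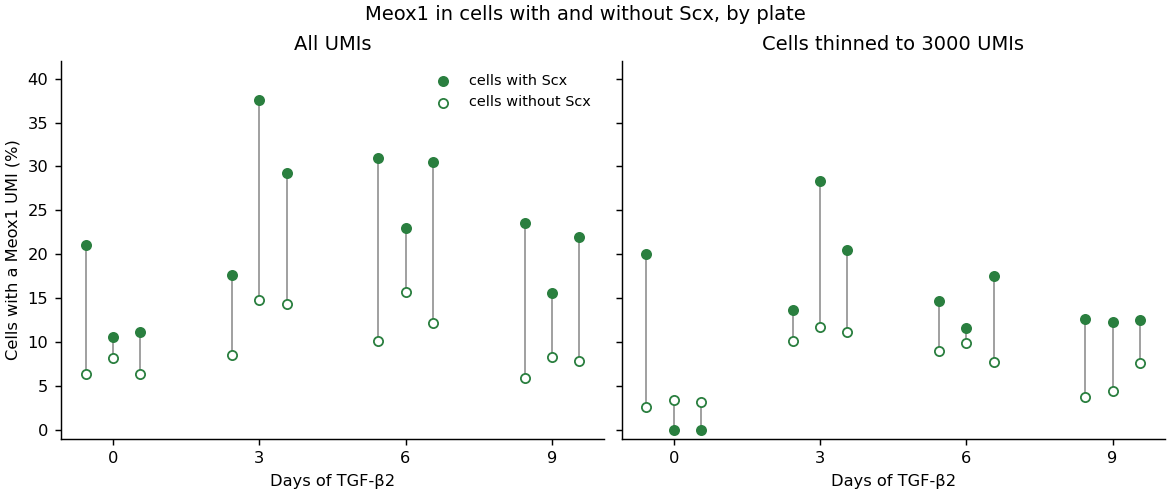
Percent of cells with at least 1 *Meox1* UMI, in cells with *Scx* (filled) and without (open), for each plate against days of TGF-β2, from all UMIs (left) and from cells thinned to 3000 UMIs (right). Lines join the classes of a plate. The filled point is above the open one in all 9 plates with TGF-β2 in both panels.

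Counted per cell, 45.2 ± 5.22% of T0 cells held a UMI of at least 1 member, 42.1 ± 11.8% of T3, 42 ± 7.40% of T6, and 24.1 ± 3.11% of T9 cells. At an equal depth of 3000 UMIs, the shares were 22 ± 0.441%, 31.0 ± 6.18%, 21.0 ± 3.35%, and 13.4 ± 2.61%, so that T3 was highest and T9 lowest. At least 2 members were found together in 125 T0, 106 T3, 105 T6, and 35 T9 cells, and no cell held more than 4. Cells with *Pax1* or *Pax9* numbered 23 at T0 and 17 at T3, under 20 in each plate, and were not tested. *Tcf15* was in 8 of the 23 at T0 (34.8%) against 155 of the 1124 others (13.8%), at a median depth of 12981 and 10128 UMIs.

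Across the 12 plates, of which 3 share each time point and which differ in depth, some members were alike in their levels. These correlations are given as a description. On log2(CPM + 1) the Pearson correlation was 0.788 for *Meox1* and *Meox2*, 0.794 for *Foxc1* and *Foxc2*, 0.773 for *Foxc1* and *Tcf15*, and -0.544 for *Meox1* and *Foxc2*. The genes whose course was most like that of *Meox1* were *Gal*, a neuropeptide gene (0.973), *Nptx1* (0.972), and *Inka1* (0.972). For *Meox2* they were *Abcd4* (0.902), *Acss2* (0.898), and *Atp5s* (0.88), and for *Foxc1* *E130308A19Rik* (0.989), *Ptbp2* (0.983), and *Cenpj* (0.982). *Ascl2* (0.986), *Hat1* (0.985), and *Zfp985* (0.979) followed *Foxc2*, and *Gabpb1* (0.933), *Cdc7* (0.93), and *Mob4* (0.928) followed *Tcf15*.

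In the Achilles tendon, the comparison of Scx_KO with Scx_Wt asks which genes differ without *Scx*. *Ripply1* encodes a co-repressor that, with T-box factors, ends the segmentation programme as a somite forms (chromosome X, 139779549 to 139782353). It had 16 and 12 reads in Scx_Wt and 397 and 294 in Scx_KO, or 1.43 and 0.979 CPM against 32.0 and 25.0 CPM. Both knockout samples were far above both controls, with a log2 fold change of 4.60 ± 0.31 (SE, 2 against 2; edgeR, adjusted p = 9.34e-05), which stayed between 4.40 and 4.84 over all 9 settings tried. Per kilobase of exon, it went from 1.49 ± 0.393 to 35.1 ± 6.16 RPKM (SD, n = 2), close to the level of *Meox1* in the same samples.

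*Meox1* was the other gene that differed, with 444 and 471 reads in Scx_Wt and 1095 and 834 in Scx_KO, or 17.5 ± 0.4 and 35.7 ± 5.56 RPKM. The log2 fold change was 1.07 ± 0.16 (edgeR, adjusted p = 0.00663), between 0.94 and 1.19 over the settings. Thus 2 of the 7 tested members were called, both as higher, where 3.84% of 14602 genes were called, 1.77% as higher and 2.07% as lower. The median of the 7 was -0.23, beside -0.0042 for all genes.

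*Meox2* had 706 and 594 reads in Scx_Wt and 550 and 559 in Scx_KO, and did not pass the test (-0.23 ± 0.17, adjusted p = 0.545). *Tcf15* had 142 and 190 against 112 and 108 reads (-0.59 ± 0.28, adjusted p = 0.312), and *Foxc1* 135 and 164 against 118 and 88 (-0.54 ± 0.29, adjusted p = 0.376). Neither passed the test. *Foxc2*, at 53 and 25 against 35 and 9 reads, and *Pax1*, at 11 and 7 against 13 and 48, varied too much between samples of a group (adjusted p = 0.607 and 0.326). The remaining genes fell below the filter. *Pax9* had 6 and 1 reads in Scx_Wt and 0 in both Scx_KO samples, *Nkx3-2*, a homeobox gene of early cartilage, had 12 and 0 against 7 and 0, and *Uncx* had none, where 3 reads in a sample, 0.242 to 0.268 CPM, would be the limit.

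Per kilobase, the order of levels in wild-type tendon was *Meox2* (23.6 ± 4.39 RPKM), *Meox1* (17.5 ± 0.4), *Tcf15* (14.4 ± 2.03), *Foxc1* (2.18 ± 0.159), *Ripply1* (1.49 ± 0.393), and *Foxc2* (1.24 ± 0.7), with the others at 0.312 or below. Neighbours among these 6 did not overlap between samples, except *Ripply1* and *Foxc2*. In Scx_KO *Meox1* and *Ripply1* came first, with overlapping samples, followed by *Meox2* (19.5 ± 0.928) and *Tcf15* (9.29 ± 0.0977).

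**Figure D5:**
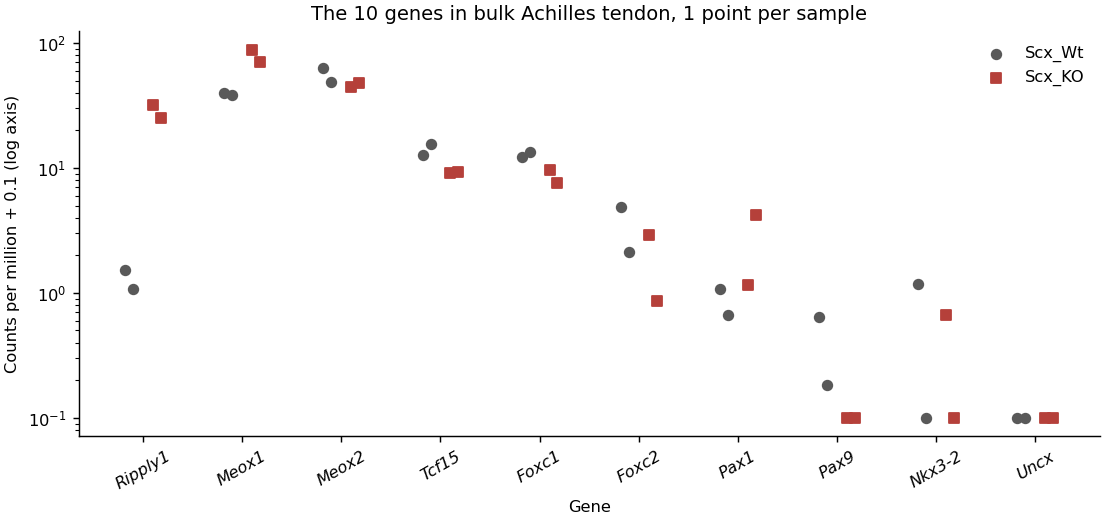
Level in CPM + 0.1, on a log axis, of the 10 genes in the 2 Scx_Wt (circles) and 2 Scx_KO (squares) Achilles tendon samples. The *Ripply1* squares are at 32.0 and 25.0 CPM above circles at 1.43 and 0.979 CPM, and *Meox1* squares are above its circles.

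Muscle and cartilage genes of the related lists differed in the tendon. Of 13 tested dermomyotome and myotome genes, *Myog* (1.75) and *Myod1* (1.05), regulators of muscle differentiation, were higher and *Met* lower (-1.15), with a median of 0.46. Of 12 tested sclerotome and cartilage programme genes, *Col2a1* (-5.09) and *Acan* (-2.95) were lower (median -0.42), as was *Cyp26a1* (-2.19) of 7 presomitic genes (median -0.51). Of 14 tendon genes 5 fell (median -0.85), led by *Tnmd* (-2.30), a marker of mature tenocytes. The medians were -0.18 over 11 Hedgehog genes, 0.05 over 9 lateral plate and limb genes, and -0.54 over 2 intermediate mesoderm genes.

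The summed levels of cell type markers differed between the samples as well. Of the 10 striated muscle markers 0 were called. Of the 10 tenocyte markers, which include *Scx* and *Tnmd*, 5 were called as lower, as were 5 of 8 tested chondrocyte markers. The summed level of 10 striated muscle markers, all detected in each sample, was 35738 and 64094 CPM in Scx_Wt against 80236 and 83813 CPM in Scx_KO, that of 10 tenocyte markers 168920 and 155676 against 75556 and 86824 CPM, and that of 10 chondrocyte markers, of which 7 or 8 were detected, 2394 and 2591 against 137 and 111 CPM. Adipocyte markers were at 3224 and 1261 against 813 and 384 CPM, and epithelial markers at 4.38 and 3.75 against 24.4 and 13.7 CPM. In bulk tissue a change in the number of cells and a change in RNA per cell cannot be told apart, and the part of these cells in the *Ripply1* and *Meox1* values was not tested.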

How the data were processed

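Single-cell UMI counts (T0, T3, T6, and T9, 3 plates each) and bulk Achilles tendon read counts (Scx_Wt and Scx_KO, 2 samples each) were used as deposited. Per the submitters' processing notes, reads were aligned to GRCm38 with HISAT2 2.2.1 and UMIs counted with featureCounts and UMI-tools 1.0.1, and the bulk reads were aligned with HISAT2 2.0.4 and counted with featureCounts 1.5.0. The authors deposited both tables as whole-number counts without normalization. Whether bulk reads were counted by strand is not given in the sources used here, although the library kit was directional. In the single-cell table, 3 rows with identifiers outside Ensembl, 0.0642% of UMIs, were left out.

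Wells with at least 200 genes were summed per plate and tested with edgeR 4.0.16 in R 4.3.3 (filterByExpr, TMM, quasi-likelihood test, Benjamini-Hochberg adjustment over all genes tested, calls at 0.05), with all 12 plates in 1 fit and the bulk samples in another. Classes of cells, with at least 20 cells per plate, were summed per plate with the plate as a covariate. DESeq2 1.42.0 was the other tool, with its adjusted p-values taken as it gave them. Other alternatives were its size factors, no filter, the replicate number as a block, the reads outside features in the mapping summary as a library split, 1000 genes, 2 UMIs, thinning to 3000 UMIs, only the plates compared, and leaving out each replicate. No doublet caller was run on the singly sorted wells. The scripts were tested on simulated counts. P-values measure the spread between plates or samples, which may be technical.

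Same-numbered plates did not deviate together (correlations of -0.56 to 0.503), so the numbers were not taken as pairs. The members, gene lists, and alternatives were chosen with earlier results of these data known. The classes of cells with *Meox1*, *Foxc1*, or *Tcf15* and the exclusion of cells with pluripotency genes were added after seeing the data. The genes named are all 10 members, from each list up to 4 called genes with the largest changes and no overlap, and for each tested member the 3 genes with the highest correlation over plates. Gene positions are from GENCODE M21. Floors of 3 counts cover counting error only. Python 3.11.15, numpy 2.4.6, pandas 2.3.3, and matplotlib 3.10.9 were used for shares and figures.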

Additional observations from a re-analysis of the deposited data

How the results depend on the processing

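Of the values for single genes, 356 stayed on their side of the threshold with their sign, 16 passed the threshold in addition, and 24 no longer passed. Reversed in sign were *Meox2* between T9 and T6, with cells thinned to 3000 UMIs (0.15) and without T6 replicate 2 (0.38), T9 replicate 1 (0.01), or T9 replicate 2 (0.07), within a range of -0.89 to 0.38 with 1 plate left out, and *Foxc2* between T9 and T6 without T9 replicate 2 (-1.23, range -1.23 to 1.57), none of which passed the test. The number of members called between T6 and T3 (1) was 2 with DESeq2, the library split, 1000 genes per cell, thinning, or without cells with pluripotency genes, and 0 with the replicate block. Between T9 and T6 (0) it was 1 with DESeq2 and with the library split. It was 1 instead of 0 for cells with *Scx* at T3 and for cells with *Foxc1* at T0, without the filter or with at least 2 UMIs, and for cells with *Tcf15* at T0, without the filter or without cells with pluripotency genes. Leaving out 1 replicate gave 2 to 3 calls for T3 against T0, 0 to 1 between T6 and T3, 0 between T9 and T6, 4 to 5 between T9 and T0, and 2 for Scx_KO against Scx_Wt. It gave 0 to 1 for cells with *Foxc1* (1 without T0 replicate 2) and 0 for the other classes.

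With the replicate number as a block, 2 members were called between T3 and T0 (*Foxc2* adjusted p = 0.0591), 0 between T6 and T3 (*Tcf15* adjusted p = 0.054) and T9 and T6, 4 between T9 and T0 (*Meox2* adjusted p = 0.0627), and 2 in the tendon. Without the block the classes of cells gave 0 calls, and *Scx* in cells with *Meox1* had an adjusted p of 1. The cause of these changes was not tested.

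Cells with *Pax1* or *Pax9* numbered 9 (thinned) or 5 (2 UMIs) at T0 and 3 (2 UMIs) at T3, and 14 to 16 and 8 to 13 with 1 plate left out. They could not be fitted, nor could cells with *Tcf15* after thinning or with 2 UMIs, with under 20 cells in a plate. Cells with a member came to 22, 21, and 13.4% at T0, T6, and T9 after thinning, and to 21.2, 24.4, 19.2, and 10.5% at T0, T3, T6, and T9 with 2 UMIs. With 1 plate left out these shares were 43.1 to 48.1%, 37.4 to 48.8%, 39.1 to 46.1%, and 23.1 to 25.8%. In the single-cell fits *Pax1*, *Pax9*, and *Uncx* had too few UMIs to pass the filter on low counts. Whether depth or low expression accounts for this was not tested.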
